A study of Mus musculus with 3 samples.

Results

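The ephrin ligand family comprises 8 genes, *Efna1* to *Efna5* and *Efnb1* to *Efnb3*. They were taken by symbol from the 24062 genes with an RNA-Seq count, and all 8 were found. RNA-Seq measures RNA by the number of reads that align to a gene. Rostrums (anterior heads) were dissected at E9 (18 to 22 somites) from 3H1 Balb embryos of 2 groups. The *tuft* group was homozygous for the spontaneous *tuft* allele, a nonsense mutation of *Tet1*, and had neural tube defects; the wild-type group was the unmutated background strain. No treatment is named for either group. RNA of 3 embryos was pooled for each genotype. Every value below comes from 1 *tuft* and 1 wild-type column of counts and has no replicate error. The labels list 2 *tuft* samples, and whether the single *tuft* column holds 1 of them or both is not stated. It is treated here as 1 library.

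Ephrins are cell-surface ligands of the Eph receptor tyrosine kinases. Ephrin-A proteins are held on the membrane by a glycosylphosphatidylinositol anchor, whereas ephrin-B proteins span the membrane and have a short cytoplasmic tail. Binding between neighboring cells signals in both directions, forward into the cell with the receptor and reverse into the cell with the ligand. The outcome can be repulsion or adhesion, and the family is known for boundaries in the neural tube, neural crest migration, vessel formation and fusion of the neural folds.

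The 3 ephrin-B genes share the end of their coding sequence, which encodes the site in the tail that binds PDZ-domain proteins in reverse signaling. The last 60 coding bases, 20 codons with the stop codon, are shown here because this end distinguishes class B from class A. They are from transcripts of GENCODE vM1 on the coding strand, and capitals mark the 46 bases that are the same in all 3 genes.
Efnb1: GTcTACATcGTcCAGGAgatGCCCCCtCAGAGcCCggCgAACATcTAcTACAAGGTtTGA
Efnb2: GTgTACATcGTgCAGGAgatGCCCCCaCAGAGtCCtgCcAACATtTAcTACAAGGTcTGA
Efnb3: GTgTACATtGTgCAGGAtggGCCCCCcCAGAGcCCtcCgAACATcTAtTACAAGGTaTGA
*Efnb1* and *Efnb2* were the same at 52 of these bases, and *Efnb3* matched each of them at 49. No window of 50 bases in the protein-coding transcripts of any ephrin gene occurred in a protein-coding transcript of another gene. Noncoding transcripts and the opposite strand were not searched. Reads shorter than 50 bases were also kept by the authors, and their sharing was not tested.

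The promoters of 3 genes are shown because these genes mark the range of the fold changes given below: *Efnb2* had the highest, *Efna4* was nearest to 1 and *Efna3* had the lowest. The sequences are from RefSeq (GRCm38.p6), run from 250 bases before to 50 bases after an annotated start, and lie on the minus strand. Capitals mark CpG dinucleotides (the letters CG, the same on both strands), the bases whose methylation TET enzymes act on. *Efna3* has 2 annotated starts, and gene counts do not tell which was used.
Efnb2, chr8:8661193-8661492: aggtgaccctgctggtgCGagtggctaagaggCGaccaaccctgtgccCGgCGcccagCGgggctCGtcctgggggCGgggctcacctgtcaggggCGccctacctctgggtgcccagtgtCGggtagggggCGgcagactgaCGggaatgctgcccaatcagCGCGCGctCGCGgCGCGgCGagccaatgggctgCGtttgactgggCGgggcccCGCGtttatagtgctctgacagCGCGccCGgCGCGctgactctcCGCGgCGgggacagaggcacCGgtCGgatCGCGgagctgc
Efna4, chr3:89337979-89338278: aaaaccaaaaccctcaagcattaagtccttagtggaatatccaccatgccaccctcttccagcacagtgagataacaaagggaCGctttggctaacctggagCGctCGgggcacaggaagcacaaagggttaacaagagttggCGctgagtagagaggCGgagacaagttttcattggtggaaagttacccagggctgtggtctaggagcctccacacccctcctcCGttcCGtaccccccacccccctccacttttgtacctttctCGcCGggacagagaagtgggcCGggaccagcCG
Efna3, chr3:89322890-89323189: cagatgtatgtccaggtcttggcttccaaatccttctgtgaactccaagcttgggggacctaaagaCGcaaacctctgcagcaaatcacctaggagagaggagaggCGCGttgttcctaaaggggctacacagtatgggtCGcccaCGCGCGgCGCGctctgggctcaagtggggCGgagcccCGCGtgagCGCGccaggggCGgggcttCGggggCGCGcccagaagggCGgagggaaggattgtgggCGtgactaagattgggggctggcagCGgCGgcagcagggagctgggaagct
Efna3, chr3:89321719-89322018: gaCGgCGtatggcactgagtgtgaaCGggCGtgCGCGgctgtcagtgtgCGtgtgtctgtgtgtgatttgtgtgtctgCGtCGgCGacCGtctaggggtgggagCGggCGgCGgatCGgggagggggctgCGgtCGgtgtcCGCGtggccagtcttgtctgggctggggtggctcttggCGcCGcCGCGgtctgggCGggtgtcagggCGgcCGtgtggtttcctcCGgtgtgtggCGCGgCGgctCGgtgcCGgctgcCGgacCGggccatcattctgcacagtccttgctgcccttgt
The window of *Efnb2* held 35 CpGs, a number reached by 6.95% of the 32851 RefSeq promoters, whose median was 7. That of *Efna4* held 11, reached by 41.4%. The windows of *Efna3* held 22 and 34 CpGs, reached by 23.1% and 7.73% of promoters. All of these windows held more CpGs than the median promoter, and a link between CpG number and fold change was not tested. Among the other matched members, the window of *Efna5* held 38 CpGs, that of *Efna2* 31, both of *Efna1* 20 and that of *Efnb1* 14. *Efnb3* had no entry among these promoters. DNA methylation was not measured in these libraries.

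Counts on genes summed to 6433067 in *tuft* and 14251942 in wild type, so a gene at the same level in both has the larger counting error in *tuft*. *Tet1*, which carries the mutation, had 32 *tuft* and 435 wild-type counts and a fold change of 0.214 (0.145 to 0.307). All fold changes are *tuft* over wild type after scaling by the trimmed mean of M-values (TMM), and the interval in parentheses is the 95% Clopper-Pearson interval of the counts. It covers counting error alone, because reads were not tagged by molecule and embryos were not sequenced singly. Levels are counts per 1e+06 of the TMM-scaled library total (normalized CPM). A sum of at least 10 counts over the libraries was reached by 13979 genes, here called tested. Of these, 2609 (18.7%) were at 0 in *tuft* and 35 were at 0 in wild type. Of 9 markers of the anterior neural plate, *Hesx1* alone was at 0 in *tuft*, and the wild-type library had counts for each. *Rax* was nearly absent from *tuft*, at 2 counts against 389 (0.0150, 0.00181 to 0.0544). These 2 were the only markers of the list at least 2-fold lower, while *Six3* and *Sox1* were at least 2-fold higher. Of all tested genes, 42.9% were at least 2-fold lower and 21.3% at least 2-fold higher. Fewer cells of a type and less RNA per cell cannot be told apart in pooled tissue.

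All 8 ephrin ligand genes reached the minimum of 10 counts. Against wild type, 6 of them had a higher normalized level in *tuft*, 1 was level within counting error and 1 was lower. The lowest fold change of the 6 was that of *Efnb3*, and 72.1% of all tested genes had a lower one. At least a 2-fold difference, the size used here for a call, was reached by *Efnb2*, *Efna2* and *Efnb1* in the higher direction and by *Efna3* in the lower one. The 3 higher calls stand beside 21.3% of all tested genes called higher, and the single lower call beside 42.9% called lower. The median log2 fold change of the 8 genes was 0.77, and that of all tested genes was -0.55. With counts under 3 set to 3, these medians were 0.77 and -0.45. With library totals in place of TMM, the log2 fold change of every gene was lower by 0.39. Only *Efnb2* then remained a higher call, while *Efna4* and *Efna3* were the only members below 0. Of the 13979 tested genes, 2217 were called higher and 6861 lower with this scaling.

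The share of calls depends on the expression level. In wild type, 6 of the 8 genes (all but *Efna1* and *Efna3*) had 30 to 100 CPM of the unscaled library total. None of these 6 was called lower and 3 were called higher. Of all 3983 genes in that range, 31.0% were called lower and 19.2% higher. When the range of 30 to 100 normalized CPM was set by the mean of the libraries, a choice made after the data were seen, 23.1% of 3815 genes were called lower and 23.7% higher. Of the 4 members in that range (*Efna2*, *Efna4*, *Efna5* and *Efnb3*), *Efna2* was called higher and none lower, while *Efnb1* and *Efnb2* lay above it. In the range set by wild type, the median log2 fold change was 0.86 for the 6 members and -0.18 for all genes.

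**Figure D1:**
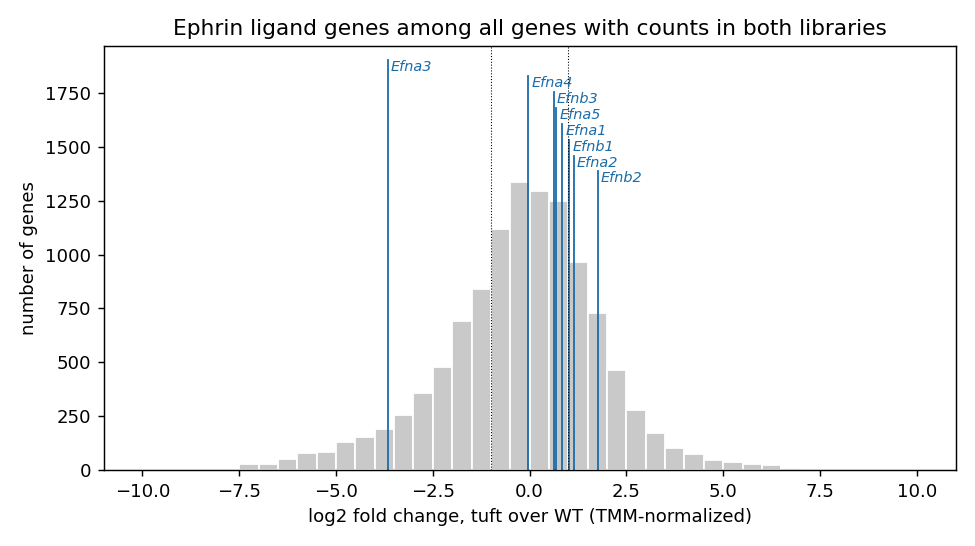
Log2 fold change (*tuft* over wild type, x axis) of the 11335 tested genes with counts in both libraries, as the number of genes per bin of 0.5 (y axis). Blue lines are the 8 ephrin ligand genes and dotted lines mark a 2-fold difference; 7 members lie from -0.04 to 1.76, and *Efna3* lies apart at -3.67.

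*Efnb2* encodes the transmembrane ligand of EphB4 and marks arterial endothelium, and it is also expressed in neural and mesenchymal tissue. The gene (RefSeq 13642, chromosome 8 of GRCm38, 8617235 to 8661242) had 1310 *tuft* and 1129 wild-type counts, the only ligand with more counts in the smaller *tuft* library. These counts are 233 normalized CPM (221 to 246) in *tuft* and 69.1 (65.1 to 73.2) in wild type. The fold change was 3.38 (3.12 to 3.66), and 88.5% of all tested genes had a lower one. It was the only member whose counting interval lay wholly above 2.

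*Efnb1*, an X-linked gene whose human counterpart is mutated in craniofrontonasal syndrome, is a class B ligand of the developing head (RefSeq 13641, chromosome X, 99136061 to 99149022). It had 944 *tuft* and 1349 wild-type counts, or 168 (158 to 179) and 82.6 (78.2 to 87.1) normalized CPM. The fold change of 2.04 (1.87 to 2.22) lay at the threshold for a call, so that counting error alone could place it on either side. With upper-quartile scaling its log2 fold change was 0.98 and it was no longer called.

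*Efnb3* is the third class B ligand and is known as a midline barrier for axons of the spinal cord (RefSeq 13643, chromosome 11, 69554092 to 69561150). Its 431 *tuft* and 816 wild-type counts are 76.8 (69.7 to 84.4) and 49.9 (46.6 to 53.5) normalized CPM. The fold change was 1.54 (1.37 to 1.73), the smallest of class B. All 3 class B genes were thus higher in *tuft*, with intervals that left out 1. They stayed above 0 with library totals (log2 fold changes of 0.63 for *Efnb1*, 1.36 for *Efnb2* and 0.23 for *Efnb3*). Of all tested genes, 72.1% had a lower fold change than *Efnb3*, 79.1% than *Efnb1* and 88.5% than *Efnb2*. The share of all genes with an interval that left out 1 was not computed. Summed over class B, 2685 *tuft* and 3294 wild-type counts gave a fold change of 2.37 (2.25 to 2.50).

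The class A genes were more varied. *Efna2* (RefSeq 13637, chromosome 10, 80179482 to 80190010), a guidance ligand known from the midbrain, had 368 *tuft* and 487 wild-type counts. Its level was 65.6 (59.1 to 72.6) normalized CPM in *tuft* and 29.8 (27.2 to 32.6) in wild type. The fold change of 2.2004 (1.92 to 2.52) was the highest of class A, and its interval reached below 2.

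*Efna5* encodes a ligand of EphA7, and mice without it can fail to close the cranial neural tube. The gene (RefSeq 13640, chromosome 17, 62602957 to 62881317) had 392 *tuft* and 710 wild-type counts. Its level was 69.9 (63.1 to 77.1) and 43.5 (40.3 to 46.8) normalized CPM, a fold change of 1.61 (1.418 to 1.82). The levels in the libraries did not overlap, the difference was short of 2-fold, and 73.3% of tested genes had a lower fold change.

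*Efna1*, *Efna3* and *Efna4* lie in tandem on chromosome 3 and differed from each other. *Efna1* (RefSeq 13636, 89271730 to 89280951), a ligand of EphA2, had 84 *tuft* and 136 wild-type counts, or 15.0 (11.9 to 18.5) and 8.32 (6.98 to 9.85) normalized CPM. Its fold change was 1.80 (1.35 to 2.38). *Efna4* (RefSeq 13639, 89333393 to 89338028), a ligand whose human counterpart has been linked to premature fusion of skull sutures, had 238 *tuft* and 711 wild-type counts. Its levels of 42.4 (37.2 to 48.2) and 43.5 (40.4 to 46.8) normalized CPM overlapped. The fold change was 0.975 (0.838 to 1.13), and its direction depended on the scaling, with a log2 fold change of 0.01 by DESeq2 size factors and -0.43 by library totals.

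*Efna3* (RefSeq 13638, chromosome 3, 89313899 to 89322939), known mainly as a ligand of EphA4 in the nervous system, had the lowest level per kilobase in both libraries. A single count was found in *tuft* and 37 in wild type, or 0.178 (0.00451 to 0.993) and 2.26 (1.59 to 3.12) normalized CPM. The ratio was 0.0787 (0.00194 to 0.467), an interval that spans more than 2 orders of magnitude. Of the 687 genes with 30 to 45 counts in wild type, 421 (61.3%) had at most 1 count in *tuft* and 376 (54.7%) had none. A value as low as that of *Efna3* was therefore common at its level of expression. The genomic span of *Efna3* overlaps 2 RefSeq lncRNA genes, and that of *Efna5* also overlaps 2. None of the 4 has a row in the tables, and with the strand setting of the counting not given in the sources used here, reads from them cannot be separated.

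Genes next to the ephrins were higher in some places and lower in others. On each side the nearest of the 24062 genes was taken, so a gene outside that set can lie closer. The gaps ran from 603 to 3589589 bases. In the order of the chromosome 3 cluster, *Slc50a1* had a fold change of 0.476 (0.299 to 0.729), *Efna1* of 1.80, *Efna3* of 0.0787, *Efna4* of 0.975 and *Adam15* of 3.10 (2.74 to 3.49). *Efna4* and *Adam15*, a membrane metalloprotease gene, are only 1611 bases apart. *Arglu1*, which lies 5054 bases from *Efnb2*, was higher in *tuft* as well, 5.08-fold (4.82 to 5.35). *Wrap53*, 603 bases from *Efnb3*, had a fold change of 0.826 (0.724 to 0.941), below 1 where *Efnb3* was above it. *Cirbp* next to *Efna2* had 0.409 (0.307 to 0.537) and *Ndufs7* on its other side 4.94 (4.56 to 5.36). *Stard8* next to *Efnb1* had 0.432 (0.360 to 0.515). The other neighbors were *Dnah2* beside *Efnb3*, with 3.66 (2.67 to 5.04), and *Fbxl17* above *Efna5*, with 1.07 (0.875 to 1.31). *Nudt12*, 3589589 bases below *Efna5*, had 0 *tuft* and 52 wild-type counts. *Slc10a2*, 3511947 bases below *Efnb2*, had 1 and 0. *Gm14812*, 256308 bases above *Efnb1*, had none in either library.

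**Figure D2:**
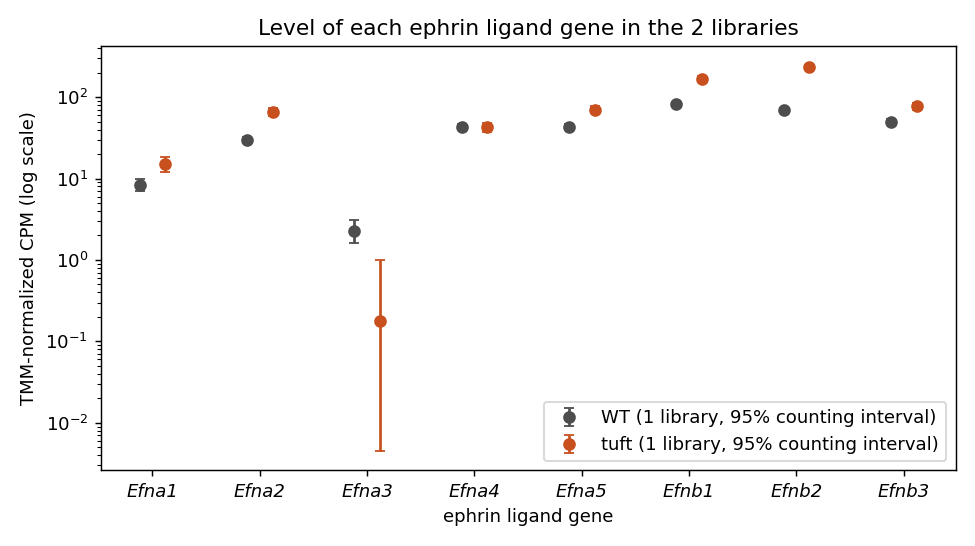
Normalized CPM (y axis, log scale) of the 8 ephrin ligand genes in wild type (grey) and *tuft* (orange), 1 library each, with 95% Poisson intervals of the counts. *Efnb2* stands at 233 in *tuft* against 69.1 in wild type, *Efna4* overlaps, and *Efna3* rests on 1 count in *tuft*.

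Levels of different genes were compared per kilobase of annotated exon. In wild type, *Efna4* was the highest at 27.2 normalized CPM per kilobase, followed by *Efnb1* at 23.9 and *Efnb3* at 15.7. *Efnb2* at 14.4 and *Efna2* at 13.99 did not differ beyond counting error, and *Efnb3* overlapped both. *Efna5* at 10.8, *Efna1* at 4.55 and *Efna3* at 0.930 followed. In *tuft*, *Efnb2* and *Efnb1* were both at 48.7 normalized CPM per kilobase and could not be ordered. Below them stood *Efna2* at 30.8, *Efna4* at 26.5 and *Efnb3* at 24.1, of which each overlapped the next. *Efna5* at 17.3, *Efna1* at 8.18 and *Efna3* at 0.0732 were again last. *Efna4* was first in wild type but below *Efnb1* and *Efnb2* in *tuft*, and *Efnb2* went from below *Efna4* and *Efnb1* to level with the first.

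The makeup of the ligand counts does not depend on how the libraries are scaled. The 8 genes held 3768 *tuft* and 5375 wild-type counts. *Efnb2* held 34.8% (33.2 to 36.3, exact binomial) of them in *tuft* and 21.0% (19.9 to 22.1) in wild type. *Efnb1* held 25.1% in both libraries. *Efna4* held 6.32% (5.56 to 7.14) in *tuft* and 13.2% (12.3 to 14.2) in wild type. The shares of *Efnb3* (11.4% against 15.2%), *Efna5* (10.4% against 13.2%) and *Efna3* (0.0265% against 0.688%) were also lower in *tuft* by more than counting error. Those of *Efna2* (9.77% against 9.06%) and *Efna1* (2.23% against 2.53%) had overlapping intervals. Class B together held 71.3% (69.8 to 72.7) of the ligand counts in *tuft* and 61.3% (59.97 to 62.6) in wild type. Per kilobase, the share of class B was 59.5% and 48.5%.

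**Figure D3:**
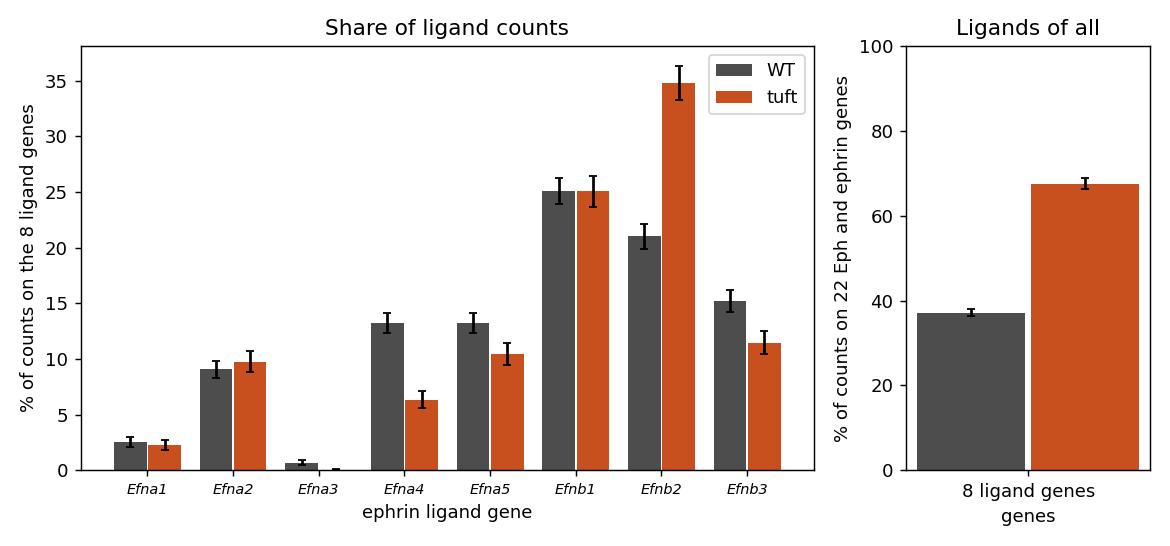
Left, share of the counts on the 8 ephrin ligand genes that each gene held in wild type (grey) and *tuft* (orange); right, share of all counts on 8 ephrin and 14 Eph genes that the ligands held. Bars are 1 library each with exact binomial 95% intervals; the share of *Efnb2* is 34.8% in *tuft* and 21.0% in wild type, and the ligands together hold 67.6% and 37.2%.

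The receptors that these ligands bind were called in the same way as the ligands. Of the 14 Eph receptor genes, 13 reached 10 counts, and *Epha6* had no count in either library. Among the 13, 7 (53.8%) were called lower in *tuft* and 2 (15.4%) higher, beside 42.9% and 21.3% of all tested genes. Their median log2 fold change was -2.03, or -1.40 with counts under 3 set to 3, against 0.77 for the ligands. *Ephb4*, which encodes the receptor of ephrin-B2, had 255 *tuft* and 3039 wild-type counts and a fold change of 0.244 (0.214 to 0.278). It was thus lower where *Efnb2* was higher. *Epha7*, the receptor gene linked to *Efna5* in cranial closure, had 543 and 920 counts and a ratio of 1.72 (1.54 to 1.91), and its interval overlapped that of *Efna5*. In the paper, quantitative PCR of single embryos found *Epha7* RNA almost lost in some affected *tuft* embryos, the opposite direction to this pooled library. *Epha2*, a partner of *Efna1*, had 8 and 274 counts (0.0850, 0.0363 to 0.170).

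*Epha4*, whose receptor binds both ephrin classes, had a fold change of 0.220 (0.170 to 0.281). Among the class B receptors, *Ephb1* had 12 *tuft* and 825 wild-type counts and a fold change of 0.0424 (0.0218 to 0.0744). *Ephb2* had 0.559 (0.490 to 0.636), *Ephb3* 0.854 (0.745 to 0.977) and *Ephb6* 0.841 (0.645 to 1.09), none of them past 2-fold. *Epha1* was higher at 3.08 (2.56 to 3.70). The other higher call, *Epha10*, rested on 36 and 24 counts in *tuft* and wild type, and the remaining lower calls, *Epha3*, *Epha5* and *Epha8*, on 0, 0 and 3 counts in *tuft*. These 4 receptors, each under 100 counts, were named after their values were seen.

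Ligands held 67.6% (66.3 to 68.8) of all counts on ephrin and Eph genes in *tuft* and 37.2% (36.4 to 38.0) in wild type. Without *Ephb4*, the receptor with the most counts in wild type, the shares were 70.8% and 47.1%, and per kilobase 79.7% and 54.4%. These 2 settings were chosen after the data were seen, and the ligand share was higher in *tuft* in each of them.

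**Figure D4:**
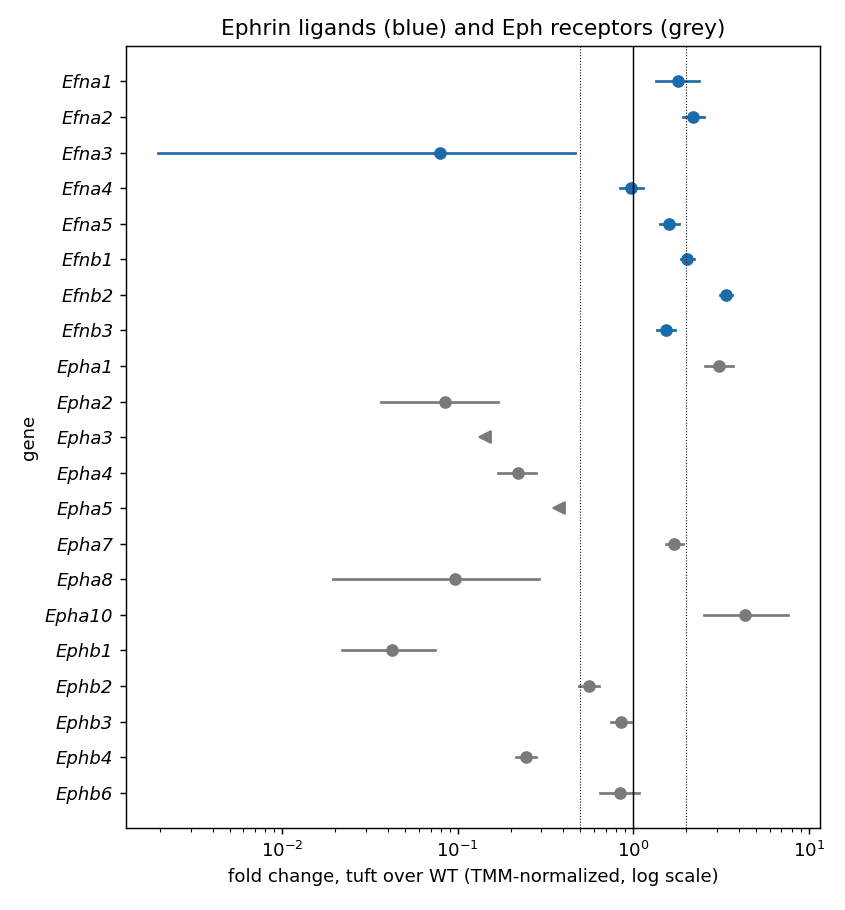
Fold change (x axis, log scale, *tuft* over wild type) of the 8 ephrin ligand genes (blue) and the 13 tested Eph receptor genes (grey), with 95% counting intervals. Triangles are fold changes at a floor of 3 counts for *Epha3* and *Epha5*, which had no count in *tuft*. The solid line marks 1 and the dotted lines mark a 2-fold difference. Above 1 lie 6 ligands, and *Ephb4* lies at 0.244 where *Efnb2* lies at 3.38.

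Several cell types of the head express ephrins, and their markers differed between the libraries. The counts of markers past 2-fold stand beside 42.9% of all tested genes at least 2-fold lower and 21.3% at least 2-fold higher. *Efnb2* and *Ephb4* mark arterial and venous endothelium, and 5 of 8 endothelial markers were at least 2-fold lower in *tuft* and 2 were higher. The summed level of these 8 was 189 normalized CPM in *tuft* and 351 in wild type, and *Pecam1* was at 0 in *tuft*. *Efnb2* was higher while this sum was lower. The 6 neural crest markers, a cell type in which class B ephrins guide migration, summed to 539 in *tuft* and 209 in wild type, with *Foxd3* at 0 in *tuft*. Of these, *Sox10* and *Sox9* were 2-fold higher and *Foxd3* was lower, and the list without *Sox10* and *Sox9* summed to 146 and 154. The anterior neural plate sum was 915 against 657 normalized CPM (2 of 9 higher, 2 lower), and the head mesenchyme sum 405 against 312 (1 of 7 higher, 2 lower, *Prrx2* at 0 in *tuft*). The surface ectoderm sum was 898 against 536 (1 of 7 higher, 1 lower, none at 0). Without the 2 markers that had the most *tuft* counts, a setting added after the data were seen, the surface ectoderm sum was 163 against 232 (*Krt8* and *Krt18* left out) and the head mesenchyme sum 116 against 159 (*Twist1* and *Alx4* left out), the opposite direction in both. The anterior neural plate sum was then 496 against 469 (*Six3* and *Otx2* left out). Yolk sac endoderm markers summed to 325 in *tuft* and 1846 in wild type (1 of 9 higher, 7 lower, *Apoa4* at 0 in *tuft*). Erythroid markers summed to 40728 and 2796 (3 of 7 higher, 3 lower, *Klf1* and *Gata1* at 0 in *tuft*), and to 1042 and 990 without *Hba-x* and *Hbb-y*. The part of cell composition in the ephrin values was not tested.

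Among the genes that process or transmit ephrin signals, the background shares of calls are those given above for all genes. The cleavage list holds the sheddases and the γ-secretase subunits that release ephrin fragments. Of its 7 genes, 4 were called higher and 2 lower. *Adam10*, the sheddase of ephrin-A proteins, had 533 counts in each library, a fold change of 2.91 (2.58 to 3.29). *Adam17*, another sheddase, had 8 *tuft* and 747 wild-type counts (0.0312, 0.0134 to 0.0618).

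Of 13 partners of reverse signaling, 6 were called higher and 4 lower. *Grip1*, a PDZ adaptor that binds the ephrin-B tail, was the highest of those with 100 counts in a library at 5.80 (5.07 to 6.63). *Pick1*, another PDZ protein of that tail, was the lowest of those at 0.0539 (0.0257 to 0.0999). Of 24 partners of forward signaling, 3 were called higher and 9 lower. *Grb7*, an adaptor of Eph receptors, was the highest under the same limit at 2.51 (2.23 to 2.81). *Acp1*, a phosphatase that acts on Eph receptors, had 0 *tuft* and 104 wild-type counts. It was 11.9-fold lower with 3 counts as the floor of the *tuft* library, and at least 9.51-fold lower by its counting interval. The median log2 fold changes were 1.499 for cleavage, 0.61 for reverse and -0.60 for forward signaling, beside -0.55 for all tested genes.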

How the data were processed

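The 2 deposited tables hold raw counts per gene symbol. The authors trimmed single-end Ion Proton reads of poly-A RNA with PRINSEQ, aligned them to mm10 (GRCm38) with TopHat2 2.0.14 and Bowtie2 2.2.5, and counted them with htseq-count. The 5 summary lines of each table stayed out of totals. Alignments that were not unique made up 59.2% of entries in *tuft* and 51.4% in wild type, and gene counts 27.4% and 37.3%.

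Counts were scaled by TMM in edgeR 4.0.16 (R 4.3.3). With 1 library per genotype no p-value was computed, and NOISeq-sim, the authors' method, was not rerun because it calls genes against simulated libraries. A gene with at least 10 counts was called at a 2-fold difference. Intervals (95%, scipy 1.17.1) were exact for counting error. They were tested only on simulated Poisson counts with known library totals, the model that they assume. Such a test cannot show how they cover the spread between embryos or error in the scaling. Alternatives were library totals, upper quartile, DESeq2 1.42.0 size factors, globins and *Rn45s* left out, other minima and stricter calls. Named genes were all ligands, receptors with at least 100 counts in a library, the extreme partners among genes with that many counts, *Tet1* and chromosomal neighbors. Lists and members were chosen with earlier results of these data known. Exon lengths came from GENCODE vM1 and positions from RefSeq GRCm38.p6.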

Additional observations from a re-analysis of the deposited data

How the results depend on the processing

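Library totals in place of TMM lowered the number of ephrin ligand genes called higher from 3 to 1 (*Efnb2*) and their median log2 fold change from 0.77 to 0.37. The medians of the Eph receptors and of all genes were -2.43 and -0.95. Of the 13979 tested genes, the number called higher fell from 2981 to 2217, and the number called lower rose from 6000 to 6861. A scaling moves all genes by the same amount, so positions relative to the median of all genes cannot change with it. With a 4-fold call, 0 ligands were called higher (1 receptor, 4 of 44 partners and 1286 of 13979 genes were), and 9 partners, 7 receptors and 4469 of all genes were called lower. With a call that needs the whole counting interval past 2-fold, 1 ligand was called higher, beside 2433 of all genes (4172 lower). 1 ligand, *Efna3*, was called lower in every one of these settings, and its interval is wide. Other minima of counts left the ligand calls as they were. The ligand share of ephrin and Eph counts was 70.8% and 47.1% without *Ephb4* and 79.7% and 54.4% per kilobase, in *tuft* and wild type. No paired analysis was possible because each genotype has 1 library. For the same reason no library could be left out, and the spread between embryos limits every comparison.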
